A study of Caenorhabditis elegans with 10 samples.

Results

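The genes described here build, anchor and trigger the contractile apparatus of C. elegans muscle. They were chosen by name, 46 in all, and each was found in both deposited tables, which list 19177 genes at 8 h and 21915 at 24 h. Whole-worm RNA-seq was done on the strain GMC101, which makes the human Aβ1-42 peptide from the promoter of the muscle myosin gene unc-54, and of the control strain CL2122, which carries the empty unc-54 vector. Both strains also hold an intestinal GFP marker driven by the mtl-2 promoter, and each strain is a single transgenic line. The labels give the stage as L1, whereas the study's methods describe worms that reached young adulthood before a rise in temperature of 8 h or 24 h turned Aβ on. In the labels each strain has 3 samples at 24 h and 2 at 8 h, but each table holds 1 value per gene and strain. No spread between replicates could therefore be computed, and each comparison below sets 1 value against another.

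Worm body wall muscle is obliquely striated. Thick filaments of myosin slide past thin filaments of actin, the troponin and tropomyosin complex on the thin filament switches the motion on with calcium, and both filament types are tied through dense bodies and M-lines to integrins in the cell membrane and to the basement membrane outside. The pharynx, the feeding organ, has its own muscle with its own myosin heavy chains and its own troponin genes. Body wall muscle is where the unc-54 promoter drives Aβ, and loss of movement is the phenotype for which these worms are used. The genes were grouped by role into the thick filament with its chaperone (9 genes), giant and M-line proteins (3), troponin and tropomyosin (11), actin with thin filament regulators (7), attachment (12) and calcium handling (4).

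The unit of the deposited tables is a read count scaled to a common library size for the pair of strains at each time, called a normalised count here. The value of a single read was found in each column and whole reads were recovered, between 20533034 and 25283085 per column. All 46 genes were well covered, with a mean over the strains of at least 249 normalised counts at 24 h and 425 at 8 h. Each log2 ratio of GMC101 over CL2122 carries a 95% exact Clopper-Pearson interval of the share of reads, which covers counting error only. Since RNA came from whole worms, fewer or smaller muscle cells and less RNA per cell cannot be told apart.

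After 24 h, 24 of the 25 filament genes other than the pharyngeal isoforms had a log2 ratio of GMC101 over CL2122 above 0, of which 11 were beyond 2-fold. The exception was unc-78, and the counting intervals of unc-22 and ttn-1 included 0. Of the 12 attachment genes 6 were above 0, and the 4 calcium handling genes were below 0, with intervals that included 0 for csq-1 and egl-19. Of the 46 genes, 11 were more than 2-fold higher in GMC101 and none was more than 2-fold lower. Among all 12268 genes with a mean of at least 50 normalised counts, 6.29% were more than 2-fold higher and 9.41% more than 2-fold lower. The median log2 ratio of the 46 genes was 0.60, beside 0.03 over all genes past that minimum and 0.12 over the 5065 genes whose mean was 1000 or more. At 8 h only unc-45 was more than 2-fold higher and none more than 2-fold lower, where 0.785% and 2.41% of 11593 genes were. The median at 8 h was -0.12, beside 0.01 over all genes. Any ratio above 1 was found for 33 of the 46 genes at 24 h and 16 at 8 h, beside 52.0% and 51.5% of all genes.

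The edgeR exact test on the recovered reads, with an assumed spread between replicates, served as an alternative rule, which compares these values and not the conditions. With an assumed coefficient of variation of 0.1 it called 11 of the 46 genes higher and none lower at 24 h, where 6.25% and 8.46% of all genes were called, and 1 higher (unc-45) and none lower at 8 h, where 0.798% and 2.08% were. With 0.2 it called 7 higher (myo-3, unc-15, tni-1, unc-27, mup-2, pat-10 and unc-87) and none lower at 24 h, where 4.02% and 4.72% were, and none at 8 h, where 0.235% and 0.579% were. The other 4 genes beyond 2-fold at 24 h (unc-54, unc-45, tni-3 and tnt-2) were also under 2-fold with the libraries scaled to total reads, at log2 ratios of 0.98, 0.86, 0.99 and 0.87. With 0.4 none of the 46 genes was called at either time, where 0.196% were higher and 0.0365% lower at 24 h, and 0.0365% and 0.0469% at 8 h.

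**Figure D1:**
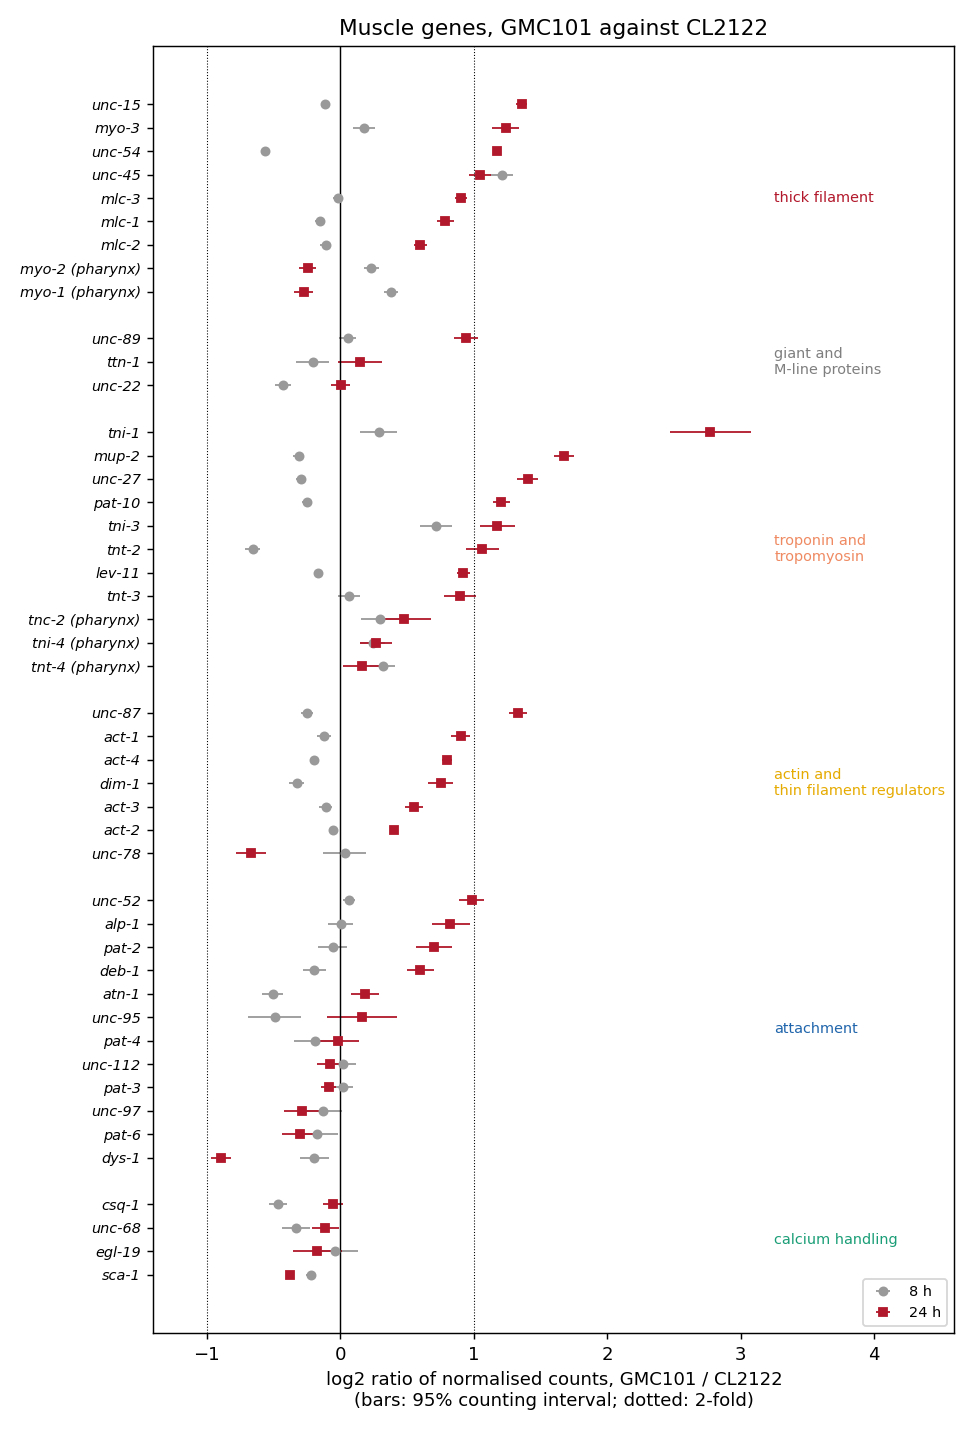
Log2 ratio of normalised counts, GMC101 over CL2122, for each of the 46 muscle genes at 8 h (grey circles) and 24 h (red squares), grouped by role, with 95% counting intervals as bars and dotted lines at 2-fold. At 24 h 11 genes lie beyond the right dotted line, led by tni-1 at 2.77, while the 4 calcium handling genes lie between -0.38 and -0.05.

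The thick filament genes encode myosin heavy and light chains, the paramyosin core and the myosin chaperone. The most abundant heavy chain gene was unc-54 (WBGene00006789, chromosome I from 14855901 to 14863573 in the coordinates of the deposited tables, whose build is not named), which encodes the major body wall myosin. At 8 h it had 62227 normalised counts in GMC101 and 91957 in CL2122, and at 24 h 54530 in GMC101 and 24167 in CL2122. GMC101 thus had the lower value at 8 h and the higher at 24 h. The log2 ratio was -0.56 (counting interval -0.58 to -0.55) at 8 h and 1.17 (1.15 to 1.20) at 24 h. Both transgenes hold unc-54 sequence, and reads from a transgene and from the gene itself cannot be told apart.

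The other body wall heavy chain gene, myo-3 (WBGene00003515, chromosome V from 12226816 to 12234343), encodes the myosin at the middle of the thick filament and is not part of either transgene. Its normalised counts were 2689 in GMC101 and 2378 in CL2122 at 8 h, and 2633 and 1115 at 24 h. The value of CL2122 at 24 h stood apart from the other 3. Its log2 ratio was 0.18 at 8 h and 1.24 (1.14 to 1.34) at 24 h. For unc-15 (WBGene00006754, chromosome I from 7376604 to 7383197), which encodes the paramyosin core, normalised counts were 18205 and 19695 at 8 h, then 16056 and 6256 at 24 h, GMC101 first. This gave the highest log2 ratio of the thick filament group at 24 h, 1.36 (1.32 to 1.40), after -0.11 at 8 h.

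The light chain genes, whose products sit on the neck of the myosin head, were higher by less. At 24 h the log2 ratio was 0.90 for mlc-3, the essential light chain gene, 0.79 for mlc-1 and 0.60 for mlc-2, the regulatory light chain genes. At 8 h the 3 lay between -0.15 and -0.02. The neighbouring genes mlc-1 and mlc-2 encode nearly the same protein, and how reads that match both were counted is not given in the sources used here. In the WBcel235 annotation 12.0% of the exon bases of mlc-2 are also shared with the antisense gene C36E6.2.

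The chaperone gene unc-45 (WBGene00006781, chromosome III from 491547 to 502625), whose product folds and assembles the myosin head, was the only gene of the 46 more than 2-fold higher at both times. It had 3636 normalised counts in GMC101 and 1572 in CL2122 at 8 h, and 3751 and 1816 at 24 h. GMC101 was the higher strain at both times and by a similar factor. The log2 ratio was 1.21 (1.12 to 1.30) at 8 h and 1.05 (0.97 to 1.13) at 24 h. The 24 h ratio was under 2-fold, at 0.86, with the libraries scaled to total reads, and the edgeR exact test with an assumed coefficient of 0.2 called unc-45 at neither time. At 8 h, when unc-45 was 2.31-fold higher, none of the myosin genes it serves was beyond 2-fold in either direction.

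At 24 h the pharyngeal heavy chain genes had log2 ratios below 0, whereas those of the body wall were above it. For myo-1 (WBGene00002348, chromosome I from 7258915 to 7267117) there were 6520 normalised counts in GMC101 and 5021 in CL2122 at 8 h, and 2727 and 3299 at 24 h. For myo-2 (WBGene00003514, chromosome X from 12468061 to 12475348) they were 5201 and 4427 at 8 h, then 3953 and 4684 at 24 h. Both genes were thus higher in GMC101 at 8 h and lower at 24 h. The log2 ratio at 24 h was -0.28 (-0.35 to -0.20) for myo-1, the lowest of the thick filament group, and -0.24 (-0.31 to -0.18) for myo-2. Their ratios at 8 h were 0.38 and 0.23. No other genes of the 46 were higher at 8 h and lower at 24 h with both counting intervals clear of 0, whereas 17 were lower at 8 h and higher at 24 h by the same measure. The share of all genes that switched in this way is not given here. Such intervals are narrow for well covered genes. Of genes with a mean of 1000 or more, they included 0 for 2201 of 4281 at 8 h and 816 of 5065 at 24 h.

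On a scale per gene length (TPM, transcripts per 1000000, from the recovered reads and the deposited lengths), unc-54 and myo-3 together stood at 592 TPM in GMC101 and 842 in CL2122 at 8 h, and at 428 and 226 at 24 h. The pharyngeal myo-1 and myo-2 together had 104 and 82.3 TPM at 8 h, and 49.0 and 69.8 at 24 h. The body wall level was therefore 5.68 times the pharyngeal level in GMC101 and 10.2 times in CL2122 at 8 h, and 8.74 times and 3.23 times at 24 h. In TPM, unc-54 exceeded myo-3 by 37.5 times in CL2122 at 8 h, and by 20.1 to 22.4 times in the other 3 columns. The order of the 4 heavy chain genes by TPM at 24 h was unc-54, myo-2, myo-1 and myo-3 in CL2122, and in GMC101 myo-3 (20.3 TPM) stood next to myo-1 (19.6 TPM).

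The troponin and tropomyosin genes held 6 of the 11 genes beyond 2-fold at 24 h and the largest ratio. For tni-1 (WBGene00006584, chromosome X from 11375887 to 11377470), 1 of 3 body wall troponin I genes, the normalised counts were 980 in GMC101 and 804 in CL2122 at 8 h, and 678 and 99.7 at 24 h. CL2122 at 24 h was far below the other 3 values. The log2 ratio was 0.29 (0.15 to 0.42) at 8 h and 2.77 (2.47 to 3.08) at 24 h, a 6.81-fold difference that rests on 644 reads against 105. Troponin I holds the thin filament in the off state until calcium binds its partner.

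Among the other troponin I genes, unc-27 (WBGene00006764) had the most transcripts. It had 9879 normalised counts in GMC101 and 12094 in CL2122 at 8 h, and 5037 and 1905 at 24 h, with a log2 ratio of -0.29 and then 1.40 (1.33 to 1.48). For tni-3 (WBGene00006585) the counts were 1495 and 909 at 8 h, then 1488 and 658 at 24 h. Its log2 ratio of 0.72 at 8 h was the highest after that of unc-45, and it was 1.18 (1.05 to 1.31) at 24 h. The make-up of the troponin I pool by TPM differed too. The share of tni-1 was 7.22% in GMC101 and 2.38% in CL2122 at 24 h, and the share of the pharyngeal tni-4 was 16.3% and 30.3%.

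Troponin T ties the complex to tropomyosin. Its most abundant gene, mup-2 (WBGene00003495, chromosome X from 6408470 to 6410359), had 8973 normalised counts in GMC101 and 11129 in CL2122 at 8 h, and 5686 and 1779 at 24 h. The log2 ratio went from -0.31 (-0.35 to -0.27) to 1.68 (1.60 to 1.75). For tnt-2 (WBGene00006587) the counts were 4282 and 6746 at 8 h, then 1570 and 751 at 24 h. Its log2 ratio of -0.66 was the lowest of all 46 genes at 8 h, and its 24 h ratio was 1.06 (0.94 to 1.19). For tnt-3 the log2 ratio was 0.06 at 8 h and 0.90 at 24 h.

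The calcium-binding subunit of the body wall is encoded by pat-10 (WBGene00003934, chromosome I from 5018770 to 5020166). It had 10374 normalised counts in GMC101 and 12342 in CL2122 at 8 h, and 6651 and 2884 at 24 h, with log2 ratios of -0.25 and 1.21 (1.14 to 1.27). Tropomyosin, encoded by lev-11, had a log2 ratio of -0.17 at 8 h and 0.92 at 24 h.

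The pharyngeal troponin genes were higher in GMC101 by less than 1.5-fold at both times. For tni-4 (troponin I) the normalised counts were 2052 in GMC101 and 1735 in CL2122 at 8 h, and 1231 and 1024 at 24 h. For tnt-4 (troponin T) they were 2071 and 1661 at 8 h, then 826 and 738 at 24 h, and for tnc-2 (troponin C) 884 and 719 at 8 h, and 515 and 369 at 24 h. In each pair GMC101 was higher, with a counting interval of the ratio clear of 0. The log2 ratios at 24 h were 0.26 for tni-4, 0.16 for tnt-4 and 0.48 for tnc-2, below those of all 8 other genes of the troponin and tropomyosin group. With the libraries scaled to their total reads, tnt-4 turned to -0.03. In tnc-2, 19.2% of the exon bases of the WBcel235 annotation are shared with the antisense gene clec-143, and reads of the pair cannot be told apart in a kit that does not mark strand.

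The 9 body wall isoforms of these families (unc-54, myo-3, tni-1, unc-27, tni-3, mup-2, tnt-2, tnt-3 and pat-10) had log2 ratios between 0.90 and 2.77 at 24 h, with a median of 1.21. The 5 pharyngeal isoforms lay between -0.28 and 0.48, with a median of 0.16. The ranges did not overlap at 24 h. At 8 h the order was the other way round by the medians, -0.25 for the body wall isoforms and 0.30 for the pharyngeal ones, all of which were above 0, and the ranges overlapped.

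**Figure D2:**
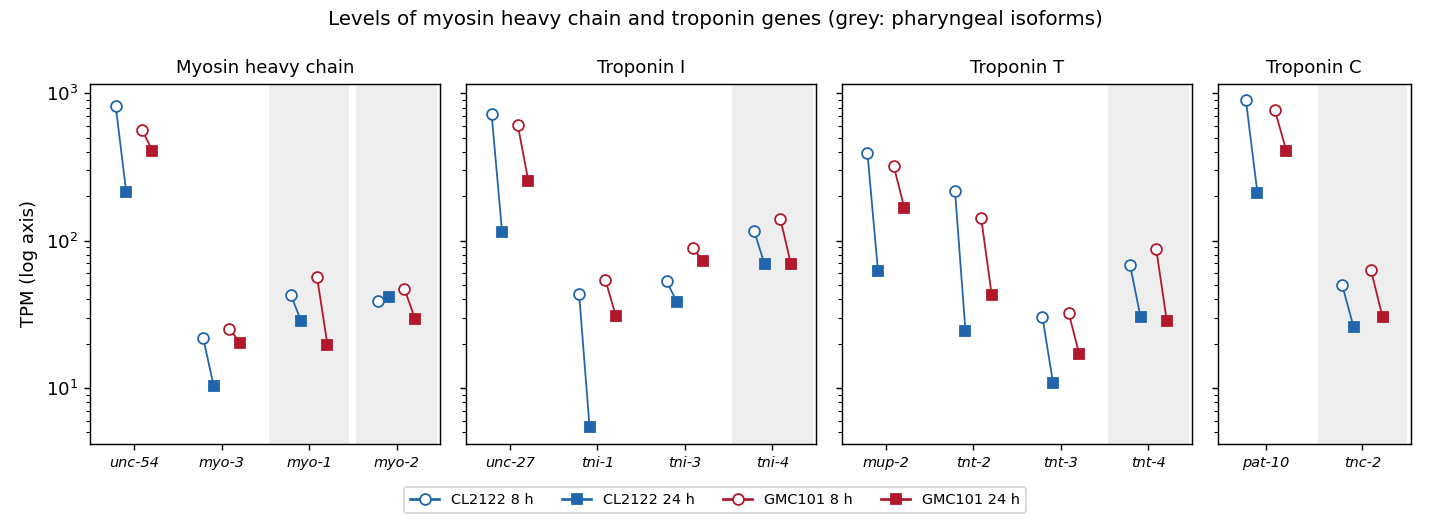
Level in TPM on a log axis of each myosin heavy chain and troponin gene in CL2122 (blue) and GMC101 (red) at 8 h (open circles) and 24 h (filled squares), with pharyngeal isoforms on grey. The line from 8 h to 24 h is steeper in CL2122 for the 9 body wall isoforms, most of all tni-1, which ends at 5.40 TPM in CL2122 and 30.8 in GMC101.

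The 4 actin genes were all higher in GMC101 at 24 h and all slightly lower at 8 h. The highest log2 ratio of the 4 at 24 h was that of act-1 (0.90, from 4179 normalised counts in GMC101 and 2238 in CL2122), followed by act-4 at 0.80 and act-3 at 0.55. The lowest was that of act-2 (0.40, from 23371 and 17655 normalised counts). Together they held 1498 TPM in GMC101 and 1215 in CL2122 at 24 h, of which act-2 made up 54.5% and 60.5%. These genes encode nearly identical proteins, so the split of reads among them is uncertain, whereas the direction was the same for all 4. At 8 h their log2 ratios lay between -0.20 and -0.05.

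Beyond 2-fold among the thin filament regulators was unc-87 (WBGene00006819, chromosome I from 6761228 to 6767797), whose calponin-like product stabilizes actin filaments. It had 7939 normalised counts in GMC101 and 9430 in CL2122 at 8 h, and 6359 and 2530 at 24 h, with log2 ratios of -0.25 and 1.33 (1.26 to 1.40). In contrast, unc-78 (WBGene00006810, chromosome X from 3408664 to 3411683), whose product works with cofilin to take actin filaments apart, was lower in GMC101. Its normalised counts were 645 and 631 at 8 h, then 1123 and 1784 at 24 h, GMC101 first. The log2 ratio was 0.03 (-0.13 to 0.19) at 8 h, not detectably different from 0, and -0.67 (-0.78 to -0.56) at 24 h. For dim-1, which encodes an immunoglobulin-domain protein found near dense bodies, the log2 ratio was -0.32 and then 0.75.

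The 3 giant and M-line genes differed among themselves at 24 h. The M-line gene unc-89, an obscurin relative, had 4030 normalised counts in GMC101 and 3877 in CL2122 at 8 h, then 2833 and 1474 at 24 h, where its log2 ratio was 0.94 (0.85 to 1.03). The twitchin gene unc-22 had 4344 and 5852 at 8 h, then 3065 and 3060 at 24 h. Its log2 ratio was -0.43 at 8 h and 0.00 (-0.07 to 0.08) at 24 h, the lowest of the group. The titin relative ttn-1 had 634 and 573 at 24 h, with a log2 ratio of 0.15 whose interval (-0.02 to 0.31) includes 0.

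The attachment genes split at 24 h, with 6 above 0 and 6 below it and a median log2 ratio of 0.07. The highest was unc-52 (WBGene00006787, chromosome II from 14647325 to 14684456), the perlecan of the basement membrane, with normalised counts of 2713 for GMC101 against 1372 for CL2122, a log2 ratio of 0.98 (0.89 to 1.08). It had 7542 and 7199 at 8 h, so that both strains were lower at 24 h. Also above 0.5 were alp-1 (0.83), an ALP-Enigma family gene, the alpha integrin gene pat-2 (0.70) and the vinculin gene deb-1 (0.60).

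The genes of beta integrin and of the complex on its inner face were at or below 0. The log2 ratio at 24 h was -0.02 (-0.17 to 0.14) for the integrin-linked kinase gene pat-4, -0.08 (-0.18 to 0.02) for the kindlin gene unc-112 and -0.09 (-0.14 to -0.03) for the beta integrin gene pat-3. For the PINCH gene unc-97 it was -0.29 (-0.42 to -0.15) and for the parvin gene pat-6 it was -0.30 (-0.44 to -0.17), both intervals lying wholly below 0. The alpha-actinin gene atn-1 (0.19) and unc-95 (0.16), which encodes a LIM protein of dense bodies and M-lines, were the remaining 2 above 0, and both turned to the other side of 0 with the libraries scaled to total reads, as did unc-22 and ttn-1.

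The lowest log2 ratio of all 46 genes at 24 h was that of dys-1 (WBGene00001131, chromosome I from 11526918 to 11557851), which encodes dystrophin. It had 1251 normalised counts in GMC101 and 1431 in CL2122 at 8 h, and 2085 and 3871 at 24 h. CL2122 at 24 h was the highest of the 4 values, as it was for unc-78. The log2 ratio was -0.19 (-0.30 to -0.08) at 8 h and -0.89 (-0.97 to -0.81) at 24 h, and it was past 2-fold, at -1.08, with the libraries scaled to total reads.

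All 4 calcium handling genes were below 0 at both times. The pump gene sca-1 (WBGene00004736, chromosome III from 10811906 to 10816844), whose SERCA product returns calcium to the sarcoplasmic reticulum, had the lowest log2 ratio at 24 h. Its normalised counts were 15050 in GMC101 and 17551 in CL2122 at 8 h, and 22056 and 28668 at 24 h, with log2 ratios of -0.22 and -0.38 (-0.40 to -0.35). The highest at 24 h was csq-1, the calsequestrin gene, with 3158 normalised counts in GMC101 and 4371 in CL2122 at 8 h, then 2634 and 2734 at 24 h. Its log2 ratio was -0.47 at 8 h and -0.05 (-0.13 to 0.02) at 24 h. The ryanodine receptor gene unc-68 had -0.33 at 8 h and -0.11 at 24 h, and the calcium channel gene egl-19 had -0.04 and -0.17 with intervals that include 0 at both times. SERCA and the ryanodine receptor also serve tissues other than muscle, which whole worm RNA does not separate.

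The difference at 24 h went with a lower level in CL2122 at 24 h than at 8 h. In CPM (reads per 1000000 on genes, from the recovered reads), 39 of the 46 genes were lower at 24 h than at 8 h in CL2122 and 41 in GMC101. More than 2-fold lower were 28 genes in CL2122, where 13.0% of 12509 genes were, and 11 in GMC101, where 11.6% of 11970 genes were. More than 2-fold higher at 24 h were 2 genes in CL2122, where 21.8% were, and none in GMC101, where 10.8% were. The median log2 change was -1.14 in CL2122 and -0.73 in GMC101, beside 0.29 and 0.14 over all genes. The 2 tables were normalised separately and the supplementary sheet for 8 h is named a second batch, so that a batch and the time of sampling cannot be told apart. With a TMM scaling over all 4 columns, chosen after seeing the data, the medians were -1.48 and -0.88, and 32 and 16 genes were more than 2-fold lower, where 16.8% and 12.9% of all genes were. With it 1 gene in CL2122 and none in GMC101 was more than 2-fold higher, where 16.1% and 9.01% were.

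The lowest log2 changes of CPM from 8 h to 24 h in CL2122 were -3.27 for tnt-2, -3.11 for tni-1, -2.77 for unc-27, -2.75 for mup-2 and -2.49 for unc-52. In GMC101 the same genes had -1.77, -0.86, -1.30, -0.98 and -1.80, of which that of unc-52, the perlecan gene, was the lowest of the 46 genes. For unc-54 the change was -2.03 in CL2122 and -0.52 in GMC101. All 9 body wall isoforms were lower by more in CL2122 than in GMC101. None of the 5 pharyngeal isoforms was, and with TMM scaling 1 was. By the same measure in CPM 30 of the 46 genes were, and the share of all genes is not given here. This measure restates the rise of the strain ratio from 8 h to 24 h, so it is not separate from the ratios above. For myo-1 the change was -0.71 in CL2122 and -1.58 in GMC101, and for myo-2 -0.02 and -0.72. Higher at 24 h in both strains were unc-78, dys-1, sca-1, pat-3 and pat-6, with CL2122 the higher of the strains for each, and unc-78 and dys-1 were beyond 2-fold in CL2122 (1.40 and 1.33). With TMM scaling pat-3 and pat-6 turned to the other side of 0 in GMC101 (-0.0035 and -0.022), and dys-1 was just under 2-fold in CL2122 (0.99).

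**Figure D3:**
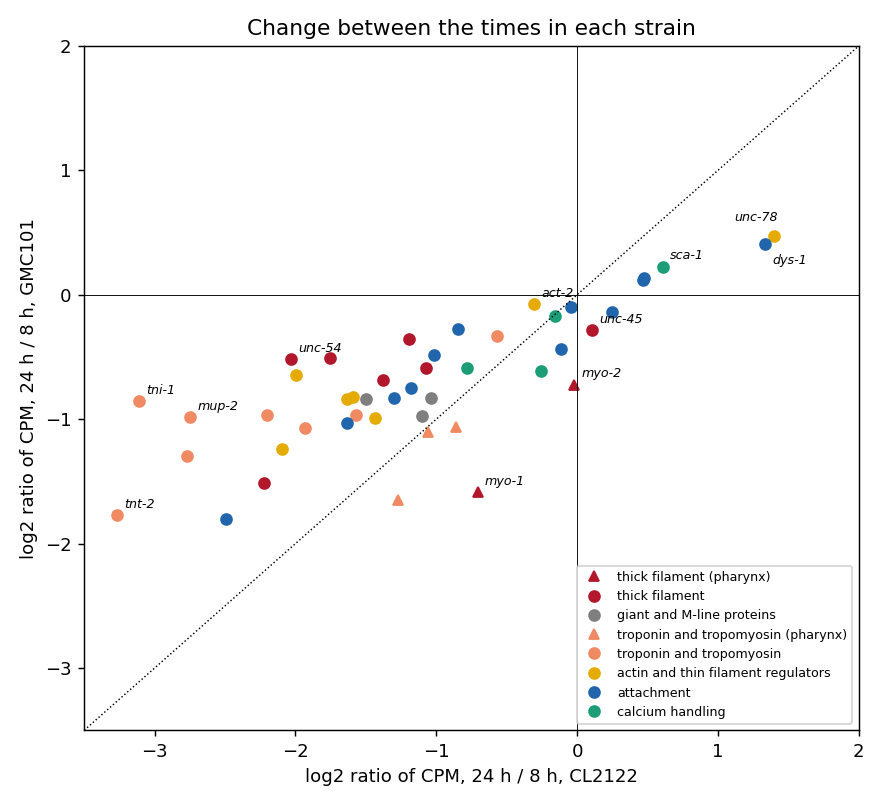
Log2 ratio of CPM at 24 h over 8 h for the 46 muscle genes, in CL2122 on the x axis and GMC101 on the y axis, coloured by role, with triangles for pharyngeal isoforms and a dotted line where both strains change alike. The 9 body wall isoforms lie above the dotted line at the left (tni-1 at -3.11 and -0.86), and the 5 pharyngeal isoforms lie below it.

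As a share of all reads on genes, the 46 genes took 1.498% in GMC101 and 1.706% in CL2122 at 8 h, and 0.960% and 0.722% at 24 h. By TPM, the thick filament group went from 2903 to 1814 in GMC101 and from 3209 to 1208 in CL2122, and the troponin and tropomyosin group from 2714 to 1319 and from 3044 to 717. The calcium handling group went from 341 to 340 in GMC101 and from 416 to 497 in CL2122. Across the 46 genes, Spearman's rho between the log2 ratios of the 2 times was 0.01 (Pearson 0.11), and that of the 24 h ratio was 0.26 with the log10 mean TPM and -0.20 with the log10 gene length. These describe genes of shared libraries, which are not independent replicates.

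The genes lie on all 6 nuclear chromosomes, 13 of them on X, including the troponin genes tni-1, unc-27, mup-2, tnt-2 and tnt-3. At 24 h the median log2 ratio of the 1655 X-linked genes past the minimum was -0.20, while that of the 13 muscle genes on X was 0.79. On chromosome I, where unc-54, unc-15, unc-87 and pat-10 lie, the medians were 0.08 over 2084 genes and 0.94 over 9 muscle genes. The gap was smaller elsewhere, and on chromosome IV the medians were nearly the same, 0.12 over all genes and 0.13 over 6 muscle genes. On chromosome III they were 0.07 and 0.34 (6 muscle genes), and on V -0.01 and 0.30 (10 muscle genes). On chromosome II they were -0.0022 and 0.73, the latter over 2 muscle genes.

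Other genes of muscle cells came from a list of 43, of which 40 passed the minimum at 24 h. They did not share the difference by their median log2 ratio, which was -0.01 beside 0.03 over all genes. By calls they leaned to higher values in GMC101. Beside 6.29% and 9.41% of all genes, 6 of the 40 were more than 2-fold higher and 1 more than 2-fold lower. Those with the largest ratios were the muscle profilin gene pfn-3 (753 normalised counts in GMC101 and 108 in CL2122, log2 ratio 2.80), and cpn-3 (8715 and 2505, 1.80) and clik-1 (4145 and 1278, 1.70), which encode calponin-like proteins. The other 3 higher genes were unc-60 (1.48), which encodes cofilin, sgn-1 (1.09), a sarcoglycan gene, and mlp-1 (1.02), a muscle LIM protein gene. The lower gene was sup-9 (-1.05), a potassium channel subunit. These 4 were named after their values were seen. Of 15 basement membrane genes, 3 were more than 2-fold higher and 4 more than 2-fold lower. The collagen IV genes emb-9 (1.23) and let-2 (1.17) and the SPARC gene ost-1 (1.06) were those higher. Those lower, named after their values were seen, were the laminin genes lam-3 (-1.36), epi-1 (-1.32) and lam-1 (-1.08) and the peroxidasin gene pxn-2 (-1.03). Of 15 non-muscle actomyosin genes the median was 0.07, and only the intestinal actin gene act-5 (1.76) was beyond 2-fold.

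Markers of other tissues also differed between the strains at 24 h. All 26 spermatogenesis genes past the minimum were more than 2-fold higher in GMC101, with a median log2 ratio of 2.52. Each belongs to the msp (major sperm protein) family of closely related genes. The split of reads among them is uncertain, so they are not 26 separate markers. The summed level of the 27 genes found was 273 CPM in GMC101 and 54.2 in CL2122. All 17 oocyte and eggshell genes were above 0, with a median of 0.70 and sums of 10619 and 7447 CPM. Of 12 intestinal genes 7 were more than 2-fold higher, with a median of 1.57 and sums of 42268 and 21968 CPM. The yolk protein genes vit-4, vit-3 and vit-1 led. The list holds vit-1 to vit-6, so its median and sums weigh yolk genes heavily. Of the other intestinal genes, act-5 (1.76), mtl-2 (1.37) and ifb-2 (0.99) were above 0. In contrast, asp-1 (-0.43), elt-2 (-0.18) and ges-1 (-0.03, interval including 0) were below it. Of 8 hypodermis and cuticle genes past the minimum the median was -0.60. Of these, col-19, col-119 and col-10 were 11.9-fold, 4.99-fold and 2.08-fold higher, and dpy-2 was more than 2-fold lower. The sums over all 15 genes found were 1991 and 487 CPM. The 17 neuronal genes had a median of 0.01, the 4 gonad sheath genes 0.21, the 5 early embryo genes 0.11 and the 2 pharyngeal gland genes -0.28. At 8 h the same lists had medians of 0.24, 0.10, -0.28, -1.03, 0.10, 0.11, 0.08 and -0.37 in that order. Those are over the 27, 17, 12, 14, 17, 4, 4 and 3 genes past the minimum at 8 h. The medians of a list at the different times are thus not always over the same genes. Among the 27 spermatogenesis genes found at 24 h none was at 0 in either strain. The part of these differences in tissue or stage in the muscle gene ratios was not tested.

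**Figure D4:**
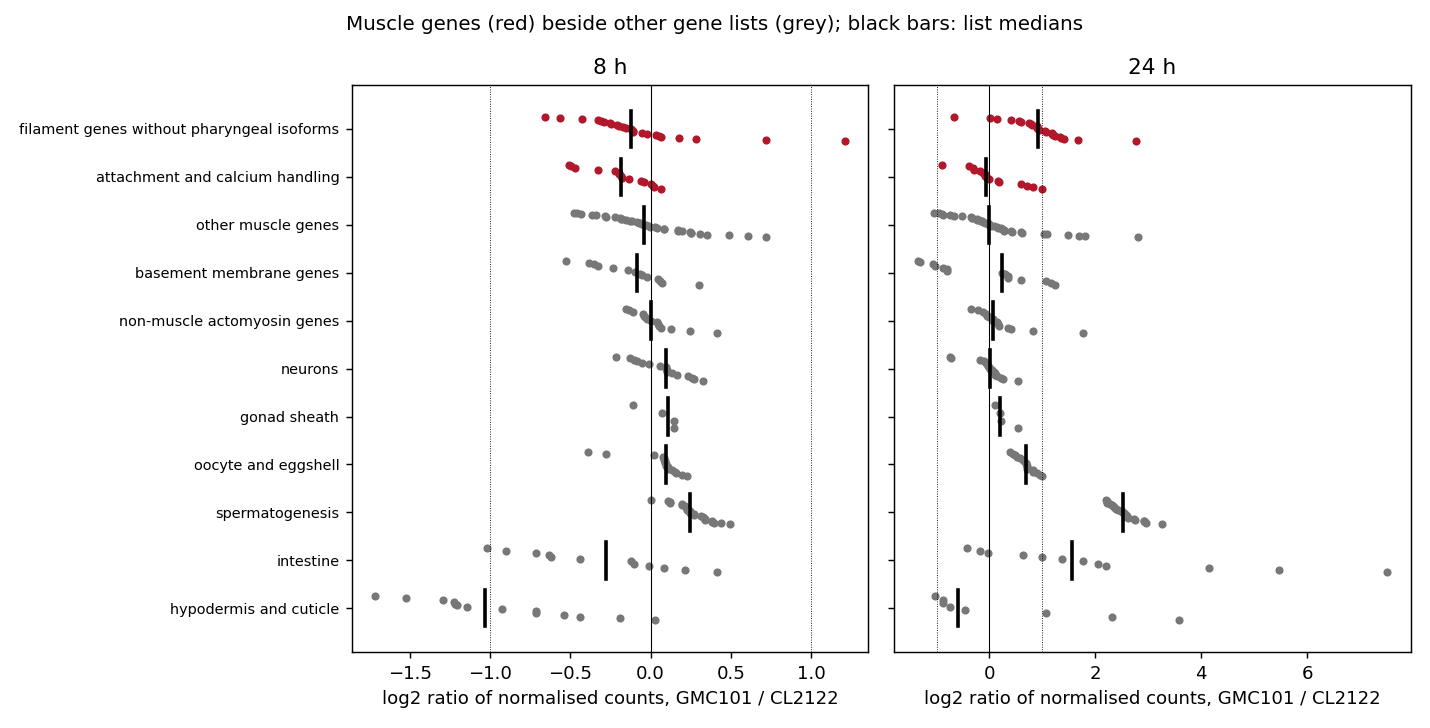
Log2 ratio of normalised counts, GMC101 over CL2122, of each gene (points) at 8 h (left) and 24 h (right, with a wider x axis) for the muscle genes in red and other lists in grey, black bars marking medians and dotted lines 2-fold. At 24 h the 25 filament genes without pharyngeal isoforms have a median of 0.92, the 16 attachment and calcium handling genes one of -0.07, and the spermatogenesis genes one of 2.52.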

How the data were processed

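RNA-seq libraries were made from whole worms with a kit for Illumina sequencing and read as paired ends. The submitters' processing notes name HISAT2 2.05, StringTie 1.33 and DESeq2 with no role. The read counter, the genome build and how labelled samples were combined are not given in the sources used here. The authors deposited 1 table per time, with a normalised signal per gene and strain, which is a read count scaled to a common library size, and with gene coordinates and lengths. The deposited tables also hold the authors' own log2 fold changes and p-value columns, which were not used.

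Low values in each column were multiples of the value of a single read. Whole reads came out for 100.0% of the values, within 0.05 of a read. Log2 ratios were computed from these reads with no pseudocount, a strain with fewer than 3 reads being set at 3. Genes with a mean of at least 50 normalised counts over both strains were compared, and a ratio beyond 2-fold was called. The fold is that of the study, which also required a false discovery rate under 0.05, so this rule is not the study's own. No test was made for these calls, since there is 1 value per strain. At 3 reads the floor of detection was 0.119 to 0.146 CPM. The edgeR exact test on the recovered reads was run as an alternative with assumed coefficients of variation of 0.1, 0.2 and 0.4 (adjusted p under 0.05 and beyond 2-fold). It compares those values, not the conditions. With 0.2, a dispersion of 0.04, it called 45 genes higher and 111 lower at 8 h, and 881 and 1034 at 24 h. These are the numbers of genes that the study reported. The strain ratios at 8 h and 24 h were compared by edgeR's likelihood ratio test with the same dispersion. Both tests, and the ratios, were tried on simulated data. Those data had the assumed dispersion of 0.04 for the tests and counting error only for the ratios. They therefore cannot show how the rules do under the unknown spread between worm populations. The alternatives tried were scaling by total counts or by the median of ratios, pseudocounts of 1 and 5, minimums of 10 and 500 and none, centring, a 1.5-fold threshold, counting intervals wholly beyond 2-fold, and leaving out unc-54 or the near-identical actin and light chain genes.

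The muscle genes and all other lists were chosen with earlier results of these data known. Every gene was accounted for, and counts in all 4 columns are given for the highest and lowest ratio of each role at 24 h, those beyond 2-fold, and the myosin heavy chain and pharyngeal troponin genes. Coordinates are those of the deposited tables. All 46 identifiers were found in Ensembl's WBcel235 gene models, where their positions overlap, and 2 of the genes share over 10% of their exon bases with another gene. Counts were tested in R 4.3.3 with edgeR 4.0.16, and size factors came from DESeq2 1.42.0. Ratios and intervals were computed in Python 3.11.15 with pandas 2.3.3, scipy 1.17.1 and numpy 2.4.6, and figures were drawn with matplotlib 3.10.9.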

Additional observations from a re-analysis of the deposited data

Results flagged for a closer look

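The strain ratio of 2 genes differed between the times by the likelihood ratio test of edgeR on the 4 columns with an assumed dispersion, which 2.85% of 18538 genes passed after Benjamini-Hochberg adjustment. The log2 ratio of GMC101 over CL2122 at 24 h less that at 8 h was 2.48 for tni-1 and 1.99 for mup-2, the troponin genes with the largest ratios at 24 h. The test compares 4 values with no replicates and rests on that dispersion. For 46 muscle genes, 2 is close to the share of all genes, so it was not read as a result about the group.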

How the results depend on the processing

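With total-count scaling, which moved the median log2 ratio of all genes at 24 h by -0.19 to -0.16, the median of the muscle genes at 24 h was 0.41, with 7 genes more than 2-fold higher and 1 lower (dys-1). The share of higher among all genes beyond 2-fold went from 40.1% to 27.6%, and 5 muscle genes changed side of 0 (unc-22, ttn-1, tnt-4, unc-95 and atn-1). With a 1.5-fold threshold, 24 muscle genes at 24 h were higher and 2 lower, while 8 h had 2 higher and 1 lower. The shares of all genes beyond 1.5-fold are not given here, so these counts have no background to be read against. The edgeR exact test called 7 genes higher at 24 h with an assumed coefficient of 0.2, of which 7 were those of total-count scaling, and 0 with 0.4. At 8 h it called 0 with either. The remaining settings left the muscle median between 0.54 and 0.61 at 24 h and between -0.13 and -0.08 at 8 h, with 9 to 11 genes higher at 24 h. Over all genes, a minimum of 10 gave 1497 higher and 2005 lower at 24 h in place of 772 and 1155, and 352 and 618 at 8 h in place of 91 and 279. No minimum gave 1957 and 2684 at 24 h and 695 and 998 at 8 h, and a minimum of 500 gave 263 and 289, and 18 and 55. No paired analysis was possible because the columns carry no replicate number, and for the same reason no replicate could be left out. Every muscle gene had at least 105 reads in each column, and the counting intervals do not cover the spread between worm populations.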
